A study of Mus musculus with 2 samples.

Results

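Fos, Fosb, Jun, Junb, Jund, Atf3, Egr1, Ier2, Ier3 and Dusp1 are genes of the AP-1 transcription factor family and of the immediate-early response. They were chosen by symbol, and all 10 were found among the 31053 genes counted. Mouse liver leukocytes were profiled one cell at a time in 2 droplet libraries (10x, 3′ chemistry, version 2). Ctrl came from uninjured C57BL/6 mice and RES from C57BL/6 mice whose liver fibrosis had resolved, and each library pooled the cells of 5 mice. In both, CD45 and CD11b double-positive leukocytes were sorted from mononuclear cells of a Histopaque gradient. How fibrosis was induced and how long it had been left to resolve are not given in the sources used here. With 1 library per condition there was no replicate and no test. Condition and preparation of the library cannot be told apart.

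AP-1 is a dimer of a Fos protein with a Jun protein, or of 2 Jun or ATF proteins, that binds a short palindrome in promoters and enhancers. Its genes belong to the immediate-early response: they are transcribed within minutes of a stimulus from factors already present in the cell, without new protein synthesis, and their transcripts decay fast. In liver macrophages and other leukocytes they are switched on by cytokines, microbial products and adhesion, and also by the digestion, cooling and sorting that precede single-cell sequencing.

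Ctrl held 3691 barcodes with 20379164 UMIs (unique transcript molecules) and RES held 4278 barcodes with 34119806. After filtering, 3337 Ctrl cells with a median of 4510 UMIs and 4011 RES cells with a median of 6357 were left. Cells were placed in classes by marker genes. There were 1593 Ctrl and 1495 RES natural killer (NK)-like cells, and 1080 and 1948 monocyte or macrophage-like cells. The latter comprised 403 and 700 classical monocyte-like, 315 and 602 nonclassical monocyte-like and 79 and 228 macrophage-like cells, with 283 and 418 that passed no subset gate and are called unsplit. There were also 137 and 104 conventional dendritic (cDC)-like and 82 and 81 B cell-like cells. Median UMIs per cell were higher in RES in NK-like cells (3304 against 4096), in monocyte or macrophage-like cells (7280.5 against 9654) and most unequally in macrophage-like cells (4943 against 11655). Levels are given as CPM, the standard scaling of a gene's summed UMIs by the total UMIs of the class and library. The macrophage-like class differed in its own markers, which summed to 20347 CPM in Ctrl and 7354 CPM in RES. Its RES over Ctrl ratios below therefore compare cells of unlike marker content. Markers of Kupffer cells, the resident macrophages of the liver, summed to 11.4 CPM in Ctrl and 10.3 CPM in RES monocyte or macrophage-like cells, with Marco at 0 in Ctrl, and the neutrophil gene Ly6g was at 0 in every class. The B cell-like cells also carried 1163 and 1298 CPM of the macrophage markers, so their values below are those of a mixed population. NK-like cells had 58.9 and 62.1 CPM of these markers and cDC-like cells 28.4 and 72.0 CPM. Classical monocyte markers were less selective. They summed to 2681 and 1856 CPM in B cell-like, 2106 and 1620 CPM in cDC-like and 1384 and 1595 CPM in NK-like cells. The libraries shared 56 cell barcodes. Of these, 53 had 504 to 972 UMIs in Ctrl and 21907 to 44791 in RES, and at least 98.2% of the Ctrl UMIs of each were in genes also counted under that barcode in RES. Results without them are given beside the first one they touch.

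Most of the genes are short, and some overlap a neighbour. In the GENCODE M21 annotation of GRCm38, Fos spans chr12:85473890-85477273 on the plus strand and Fosb chr7:19302696-19310051 on the minus strand. The single-exon genes are Jun at chr4:95049034-95052222, Junb at chr8:84974484-84978718 and Ier2 at chr8:84661331-84662852, all on the minus strand, and Jund at chr8:70698949-70700616 on the plus strand. Ier3 spans chr17:35821684-35822923 on the plus strand, Dusp1 chr17:26505590-26562128 and Atf3 chr1:191170296-191218039 on the minus strand. Junb overlaps Prdx2, Jun overlaps Junos, Jund overlaps Gm11175 and Dusp1 overlaps Gm8225 and Ergic1 on the opposite strand. Whether counting used the strand is not given in the sources used here, so UMIs of these pairs may be shared.

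Promoters of 8 of the 10 genes were matched in RefSeq sequence of GRCm38.p6. No promoter was matched for Egr1 and Ier2, so neither was searched. The 250 bases before each start were searched on both strands for TGACG, the core of the cyclic AMP response element. It occurred in 5 of the 8 (Fos, Fosb, Junb, Dusp1 and Atf3), against 17.8% of 32851 mouse promoters of the same length. The full element TGACGTCA, which contains that core, occurred in Dusp1 alone among the 8, against 1.55% of promoters. The AP-1 element TGANTCA was in none of the 8 (6.75% of promoters), nor was the CArG box bound by serum response factor (1.47%), while TATAAA was in Fos (12.4%). At 6.75% and 1.47% of promoters, 0 of 8 is near the background. A match is a description of the letters, and its absence concerns these windows alone. The windows below are shown because the ratios of Fos, Junb and Dusp1 were above 0 in RES monocyte or macrophage-like cells and because Fosb, which carries the same core, was level over all of these cells. Each is written 5′ to 3′ on the strand of the gene with the matched letters in capitals. They lie at chr12:85473807-85473846 (plus strand), chr7:19310083-19310122, chr8:84978832-84978871 and chr17:26508590-26508629 (minus strand), and in no annotated exon. The Dusp1 window lies inside the span given above for Dusp1, so the start used there is not the outer end of that span. The Atf3 match lies in an exon of another transcript and is not shown.
Fos: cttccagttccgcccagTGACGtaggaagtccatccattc
Fosb: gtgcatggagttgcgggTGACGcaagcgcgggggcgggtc
Junb: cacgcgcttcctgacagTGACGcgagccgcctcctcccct
Dusp1: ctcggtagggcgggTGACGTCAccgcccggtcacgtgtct

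In monocyte or macrophage-like cells the 10 genes together made up 2545 CPM in Ctrl and 3318 CPM in RES. The log2 ratio of RES over Ctrl was 0.38 (95% interval 0.36 to 0.41). All intervals here cover counting error only, not differences between cells, mice or preparations. It was 0.39 without the shared barcodes. In NK-like cells from the same preparations the summed level was 2911 CPM in Ctrl and 2935 CPM in RES, a log2 ratio of 0.01 (-0.02 to 0.04), and 0.02 without the shared barcodes. The summed level was thus alike in the NK-like cells of both libraries and higher in RES over all monocyte or macrophage-like cells. The NK-like sum joined ratios above 0 (Junb 0.26, Dusp1 0.38, Jun 0.09) and below 0 (Fosb -0.16, Jund -0.12, Egr1 -0.28). In monocyte or macrophage-like cells Fos (0.53), Junb (0.46), Dusp1 (0.83), Ier3 (1.46), Jun (0.19) and Jund (0.18) were above 0. Fosb (-0.02), Egr1 (0.06), Ier2 (0.02) and Atf3 (-0.02) were level there. Among the myeloid subsets the summed log2 ratio was 0.49 in classical monocyte-like cells, 0.52 in unsplit cells and 0.20 in nonclassical monocyte-like cells. It was 0.02 (-0.07 to 0.10) in macrophage-like cells, 0.08 in cDC-like cells and -0.01 (-0.10 to 0.09) in B cell-like cells. Summed chaperone transcripts, which also respond to handling, were 4921 and 5271 CPM in monocyte or macrophage-like cells and 4254 and 4916 CPM in NK-like cells. The median mitochondrial share was 2.40% and 2.60% in monocyte or macrophage-like cells. Their part in the difference was not tested.

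A gene was counted as higher or lower where it had at least 20 CPM in either library and differed 1.5-fold or more. In monocyte or macrophage-like cells 2 of the 10 genes were higher (Dusp1 and Ier3) and 0 lower. Of all 5937 genes measured there, 7.06% were higher and 4.75% lower. Over all kept cells, whose class shares differ between the libraries, 3 of the 10 (Fos, Ier3, Dusp1) were higher and 0 lower, beside 6.06% and 3.63%. In NK-like cells 8 genes were measured and 0 were higher or lower, where 0.84% and 0.706% of 5953 genes were. Classical monocyte-like cells had 3 higher (Fos, Ier3, Dusp1) and 1 lower (Egr1), beside 5.56% and 4.77% of all genes. Nonclassical monocyte-like cells had 9 measured with 3 higher (Fosb, Ier3, Dusp1) and 0 lower, beside 6.19% and 2.72%. Macrophage-like cells had 2 higher (Junb, Ier3) and 2 lower (Fosb, Jun), but there 20.7% of all genes were higher and 23.5% lower, so these counts are near the background. The unsplit cells had 4 higher (Fos, Egr1, Ier3, Dusp1) and 0 lower, beside 14.4% and 9.4%. The cDC-like cells had 2 higher (Ier3, Dusp1) and 2 lower (Fosb, Egr1), beside 9.3% and 6.44%. B cell-like cells had 2 higher (Ier3, Dusp1) and 1 lower (Egr1), beside 15.8% and 10.6%. The median log2 ratio of the 10 genes in monocyte or macrophage-like cells was 0.19, against 0.04 over all genes.

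**Figure D1:**
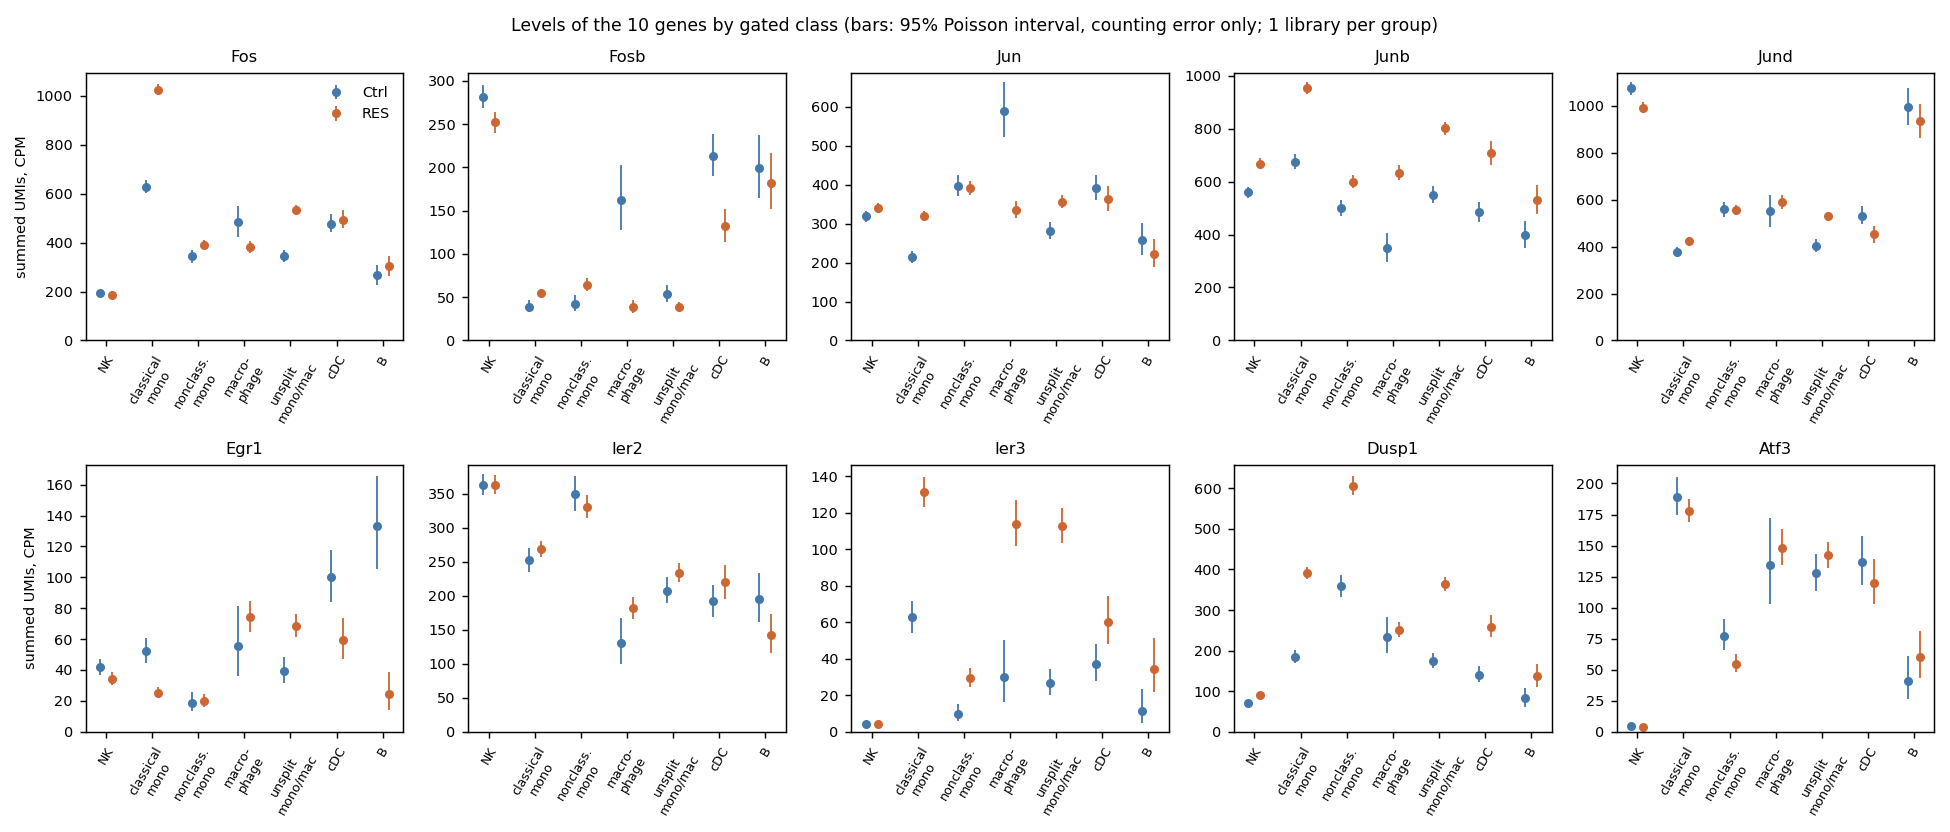
Level of each gene (CPM) in 7 non-overlapping cell classes, Ctrl in blue and RES in orange, 1 library each; bars are 95% Poisson intervals. Fos, Junb and Dusp1 stand higher in RES classical monocyte-like cells (Fos 630 against 1026 CPM), while the NK-like points of the 2 libraries lie close together for most genes.

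Fos encodes the founding partner of Jun in AP-1. Its level in classical monocyte-like cells, the highest class in both libraries, was 630 CPM in Ctrl against 1026 CPM in RES. The log2 ratio of RES over Ctrl was 0.70 (0.63 to 0.78). In unsplit cells it was at 345 and 534 CPM (0.63). Both values are above the 1.5-fold line. In nonclassical monocyte-like cells it was at 343 and 391 CPM (0.19), and in cDC-like cells at 478 and 495 CPM (0.05, -0.11 to 0.20). It was lower in RES in macrophage-like cells, at 484 and 382 CPM (-0.34). NK-like cells had the lowest level, with 194 and 186 CPM (-0.05, -0.17 to 0.06). With each cell thinned to 1000 UMIs, 39.8% of Ctrl and 53.1% of RES classical monocyte-like cells had a Fos UMI, and 17.0% and 14.1% of NK-like cells. Unthinned, these shares were 79.7% and 92.6%, and 39.2% and 46.5%. More classical monocyte-like cells thus had Fos in RES at equal depth, which was not so for NK-like cells.

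Fosb, a related Fos protein whose transcript is also short-lived, was highest where Fos was lowest. NK-like cells held the most, 282 against 252 CPM (-0.16, -0.26 to -0.06). Classical monocyte-like cells held 39.1 and 54.4 CPM (0.48, 0.18 to 0.78), and nonclassical monocyte-like cells 42.1 and 64.5 CPM (0.61, 0.26 to 0.98). Both monocyte classes were higher in RES for Fosb, as for Fos, and the nonclassical value was past 1.5-fold. It was lower in RES in cDC-like cells, 213 against 132 CPM (-0.69), and in macrophage-like cells, 162 against 38.8 CPM (-2.06). The Ctrl macrophage-like class holds 79 cells, of which 30 had a Fosb UMI, at a median of 4943 UMIs per cell against 11655 in RES. These cells also carried 292 CPM of cDC1 markers and 111 CPM of B cell markers, against 54.9 and 16.7 CPM in RES, and the part of such transcripts in the difference was not tested. Over all monocyte or macrophage-like cells Fosb was level, at 51.1 and 50.4 CPM (-0.02, -0.19 to 0.15).

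Of the Jun proteins, Junb was the one that was higher in RES in all 7 classes with an interval above 0. It was at 675 and 953 CPM in classical monocyte-like cells (0.50), 551 and 801 CPM in unsplit cells (0.54) and 500 and 600 CPM in nonclassical monocyte-like cells (0.26). In NK-like cells it was at 559 and 668 CPM (0.26, 0.19 to 0.32). It was at 484 and 707 CPM in cDC-like cells (0.55), 399 and 531 CPM in B cell-like cells (0.41) and 348 and 633 CPM in macrophage-like cells (0.86). The shift of Junb was therefore shared with NK-like and B cell-like cells, whereas that of Fos was not seen in NK-like cells. The macrophage-like value alone was past 1.5-fold.

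Jun, the main transactivating partner, was at 214 and 319 CPM in classical monocyte-like cells (0.58, 0.45 to 0.70), just under the 1.5-fold line. It was at 398 and 391 CPM in nonclassical monocyte-like cells (-0.02) and 319 and 340 CPM in NK-like cells (0.09, 0.00 to 0.18). Macrophage-like cells, whose markers differed between the libraries as given above, differed in the other direction, 589 against 336 CPM (-0.81). Jund, which is expressed constitutively in many cells, was within 1.5-fold in all 7 classes. It was at 1074 and 992 CPM in NK-like cells (-0.12) and 994 and 933 CPM in B cell-like cells (-0.09). Both lymphoid classes were well above classical monocyte-like cells, at 378 and 425 CPM (0.17), in either library. Across the 7 classes the log2 ratio of Jund ran from -0.24 in cDC-like cells to 0.39 in unsplit cells.

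Atf3, a stress-induced factor that dimerizes with Jun proteins and often represses, did not follow Fos. It was at 189 and 178 CPM in classical monocyte-like cells (-0.09, -0.23 to 0.05) and 140 and 138 CPM in all monocyte or macrophage-like cells (-0.02, -0.12 to 0.08). It was lower in nonclassical monocyte-like cells, at 77.5 and 54.8 CPM (-0.50, -0.80 to -0.20). NK-like cells had 29 Atf3 UMIs in Ctrl and 28 in RES, or 4.996 and 4.12 CPM. The thinned share of cells with an Atf3 UMI was 0.446% and 0.471% in NK-like cells and 10.5% and 9.78% in monocyte or macrophage-like cells (1.69% and 1.74%, and 43.1% and 46.9%, unthinned). The myeloid shares of Atf3, and of Ier3 below, were above the NK-like ones. Whether free RNA or rare expression gave the NK-like counts was not tested.

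Egr1, a zinc-finger factor induced through serum response factor, was the least evenly spread gene. In classical monocyte-like cells it was at 52.0 and 24.98 CPM (-1.06, -1.37 to -0.75) and at 39.1 and 68.5 CPM in unsplit cells (0.81, 0.46 to 1.17). Over all monocyte or macrophage-like cells it was level, with 39.98 and 41.7 CPM (0.06, -0.13 to 0.25). Few cells carry these values. In Ctrl classical monocyte-like cells 39 of 403 had an Egr1 UMI, and 1 cell held 38 of the 166 UMIs. Without the top cell of each library the ratio was -0.77, and without the top 1% of cells -0.37 (-0.80 to 0.07). The unsplit cells had 0.98 and 1.03 under the same removals. In B cell-like cells Egr1 was at 133 and 24.3 CPM (-2.45), with 29 of 81 Ctrl UMIs in 1 cell, and the ratio was -2.31 without the top cell. In NK-like cells Egr1 was at 41.7 and 34.3 CPM (-0.28, -0.55 to -0.02), and -0.03 (-0.38 to 0.32) without the top 1% of cells.

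The IER genes are grouped by their kinetics of induction rather than by function. Ier2, a nuclear protein, was at 363 CPM in NK-like cells of both libraries (interval -0.08 to 0.08) and 257 and 261 CPM in monocyte or macrophage-like cells (0.02, -0.06 to 0.09). In macrophage-like cells it was at 130 and 182 CPM (0.48, 0.10 to 0.89) and in B cell-like cells at 196 and 142 CPM (-0.46, -0.86 to -0.07). The smaller classes thus differed in opposite directions, each by less than 1.5-fold. Ier3, a regulator of apoptosis that is also an NF-kB target, gave the largest ratios of the 10 in monocyte or macrophage-like cells. There it was at 37.0 and 102 CPM (1.46, 1.29 to 1.65). Its subsets were 62.6 and 131 CPM in classical (1.07), 9.69 and 29.4 CPM in nonclassical (1.603), 29.9 and 114 CPM in macrophage-like (1.93) and 26.8 and 113 CPM in unsplit cells (2.07). Each of these 4 subsets was thus higher in RES, by 2-fold or more. NK-like cells had 24 and 29 Ier3 UMIs, or 4.13 and 4.27 CPM. The thinned share of cells with an Ier3 UMI was 2.82% and 7.47% in monocyte or macrophage-like cells and 0.574% and 0.605% in NK-like cells (14.2% and 32.7%, and 1.13% and 1.81%, unthinned). In cDC-like cells 1 Ctrl cell held 23 of 52 Ier3 UMIs, and the ratio was 0.70 with it and 1.34 without the top cell of each library.

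Dusp1 encodes a nuclear phosphatase that inactivates the p38 and JNK kinases upstream of AP-1, and is itself an immediate-early gene. It was higher in RES in all 7 classes, with an interval above 0 in 6. It was at 185 and 391 CPM in classical monocyte-like cells (1.08, 0.95 to 1.21), 358 and 606 CPM in nonclassical monocyte-like cells (0.76) and 175 and 364 CPM in unsplit cells (1.06). NK-like cells had 69.9 and 91.2 CPM (0.38, 0.20 to 0.57). It was at 140 and 259 CPM in cDC-like cells (0.88) and 82.1 and 137 CPM in B cell-like cells (0.74). Macrophage-like cells were the exception, at 235 and 251 CPM (0.10, -0.20 to 0.40). The thinned share of monocyte or macrophage-like cells with a Dusp1 UMI was 18.9% in Ctrl and 33.0% in RES (60.1% and 82.3% unthinned), so the excess was spread over many cells. Dusp1 is also induced by glucocorticoids, and those genes are described below.

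**Figure D2:**
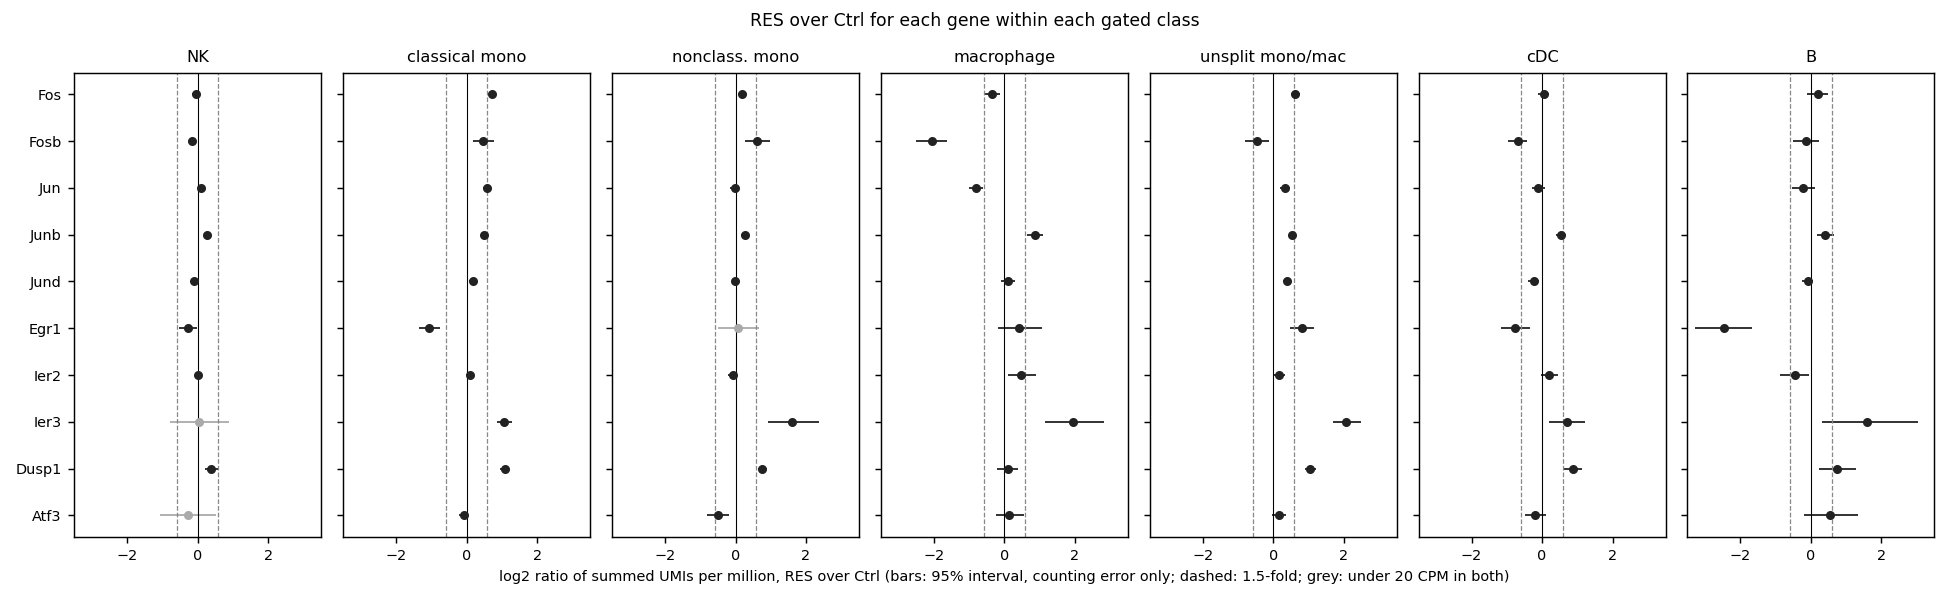
The log2 ratio of RES over Ctrl for each gene (rows) in each of 7 cell classes (panels), with 95% intervals for counting error; dashed lines mark 1.5-fold and grey points were under 20 CPM in both libraries. Dusp1 and Junb lie to the right of 0 in every panel, NK-like points stay within 1.5-fold, and Fosb and Egr1 fall on both sides.

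Differences between classes were wide and mostly ran the same way in both libraries. Of the 10 genes, NK-like cells had 2 higher and 4 lower than monocyte or macrophage-like cells in Ctrl and again in RES. The background of this contrast is wide: 30.1% of 6691 genes were higher and 22.6% lower in Ctrl, and 27.3% and 24.7% of 6779 in RES. Fosb was 5.51-fold and 4.996-fold higher and Jund 2.43-fold and 1.97-fold higher in NK-like cells. Atf3 was 28.0-fold and 33.5-fold, Ier3 8.94-fold and 23.9-fold, Dusp1 3.29-fold and 4.50-fold and Fos 2.41-fold and 3.61-fold lower. Jun, Junb, Egr1 and Ier2 were within 1.5-fold in both libraries.

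Between monocyte subsets, nonclassical monocyte-like cells had 2 genes higher and 4 lower than classical ones in Ctrl, beside 16.8% and 12% of all genes, and 1 higher and 4 lower in RES, beside 18.8% and 11.1%. Dusp1 was higher in both (1.94-fold and 1.55-fold), and Jun in Ctrl (1.86-fold) but less in RES (1.23-fold). Fos was lower in both (1.83-fold and 2.62-fold), as were Ier3 (6.46-fold and 4.46-fold) and Atf3 (2.44-fold and 3.25-fold). Egr1 was lower in Ctrl and Junb in RES. In the order of the 7 classes, Fos, Junb, Ier3 and Atf3 were highest in classical monocyte-like cells, Fosb, Jund and Ier2 in NK-like cells and Dusp1 in nonclassical monocyte-like cells, in both libraries. Of the 6 neighbouring pairs in each order, 2 to 5 had overlapping intervals, so these ranks are not separated. For Jund the overlap included the top rank, of NK-like and B cell-like cells, in both libraries. For Ier2 it included NK-like and nonclassical monocyte-like cells in Ctrl. For Ier3 it included classical monocyte-like and macrophage-like cells in RES.

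RES held many monocyte or macrophage-like cells with the injury-associated genes Arg1 or Spp1. With 3 or more UMIs of the pair as the gate, they were 651 of 1948 cells in RES and 21 of 1080 in Ctrl, and so they could be compared only within RES. These cells had lower Fos and Fosb and higher Egr1 and Ier3. Fos was at 869 CPM in cells below the gate against 419 CPM above it (log2 ratio of above over below -1.05, -1.11 to -0.997). Fosb was at 68.5 and 26.9 CPM (-1.35, -1.57 to -1.13). Both Fos genes were thus past 1.5-fold lower in these cells. Egr1 was at 29.6 and 57.5 CPM (0.96) and Ier3 at 74.6 and 137 CPM (0.88). Of the 10 genes 2 were higher and 2 lower, beside 15.5% and 17.5% of 6160 genes, so these counts are near the background. Junb (806 and 775 CPM) and Atf3 (134 and 143 CPM) were alike above and below the gate. Dusp1 (-0.49), Ier2 (-0.44), Jund (0.41) and Jun (0.12) differed by less than 1.5-fold. Cells above the gate were deeper, with a median of 12045 UMIs against 8719.

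The gate also selects among subsets, so the contrast was repeated within them. In classical monocyte-like cells (135 above, 565 below) Fos was at 557 against 1153 CPM (-1.05) and Fosb at 28.4 against 61.5 CPM (-1.11). Jun was at 480 against 276 CPM (0.80), Egr1 at 50.7 against 18.0 CPM (1.49) and Ier3 at 244 against 101 CPM (1.28). In all, 3 were higher and 2 lower, beside 18.6% and 20.5% of all genes. These counts, like those of the other subsets below, are near the background. In unsplit cells (255 and 163) Fos (-0.97) and Fosb (-1.55) were again lower and 0 of the 10 higher, beside 15.7% of all genes lower and 17.1% higher. In nonclassical monocyte-like cells (56 and 546) Fosb was lower (-1.75) and Ier3 higher (2.36), beside 12.3% of all genes lower and 12.5% higher, while Fos was level (0.05, -0.12 to 0.21). The 56 cells had a median of 16570 UMIs against 5075.5. Fosb was the only gene past 1.5-fold lower in all 3 subsets compared. Dusp1 was lower in each by less, at -0.28 in classical, -0.38 in nonclassical and -0.16 (-0.30 to -0.01) in unsplit cells. In macrophage-like cells, with 205 above and 23 below, no comparison was made.

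Leaving the gated cells out of both libraries raised the RES over Ctrl ratio of Fos in monocyte or macrophage-like cells from 0.53 to 0.88, and that of Fosb from -0.02 to 0.40. The ratio of Ier3 was then 1.02 and of Dusp1 1.02, and Egr1 went from 0.06 to -0.41. The summed ratio was 0.46, and 3 genes (Fos, Ier3, Dusp1) were higher and 0 lower, beside 2.77% and 2.89% of 5810 genes. Platelet markers summed to 20.4 CPM in Ctrl and 92.0 CPM in RES monocyte or macrophage-like cells, and to 19.1 and 10.2 CPM without the gated cells. Their part in the ratios was not tested.

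**Figure D3:**
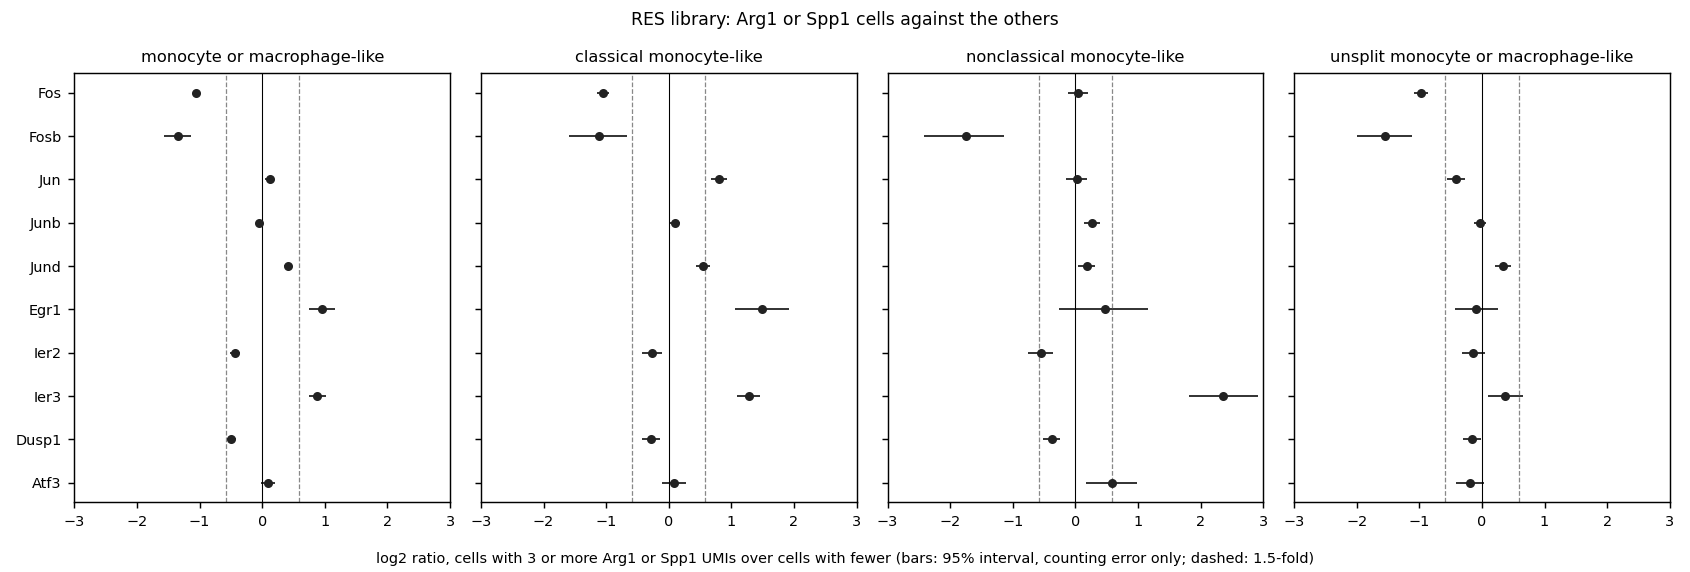
RES library only: log2 ratio of each gene in cells with 3 or more Arg1 or Spp1 UMIs over cells with fewer, in all monocyte or macrophage-like cells and 3 subsets, with 95% intervals for counting error and dashed lines at 1.5-fold. Fosb lies left of the dashed line in each panel and Fos in all but nonclassical monocyte-like cells, while Ier3 lies right of 0 throughout.

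From cell to cell the genes were spread broadly. With every cell thinned to 2000 UMIs, classical monocyte-like cells had a mean of 5.45 UMIs of the 10 genes in Ctrl and 7.62 in RES. The 10th percentile was 2 and 3, the median 5 and 7 and the highest 10% of cells began at 11 and 13, while 5.97% and 1.01% of cells had none. The low, middle and high parts of the distribution were thus all higher in RES. NK-like cells had 6.09 and 6.08 UMIs per cell on average, with 1.28% and 1.31% of cells at 0. In unsplit cells the mean was 4.39 and 6.48, and in nonclassical monocyte-like cells 5.35 and 6.05.

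**Figure D4:**
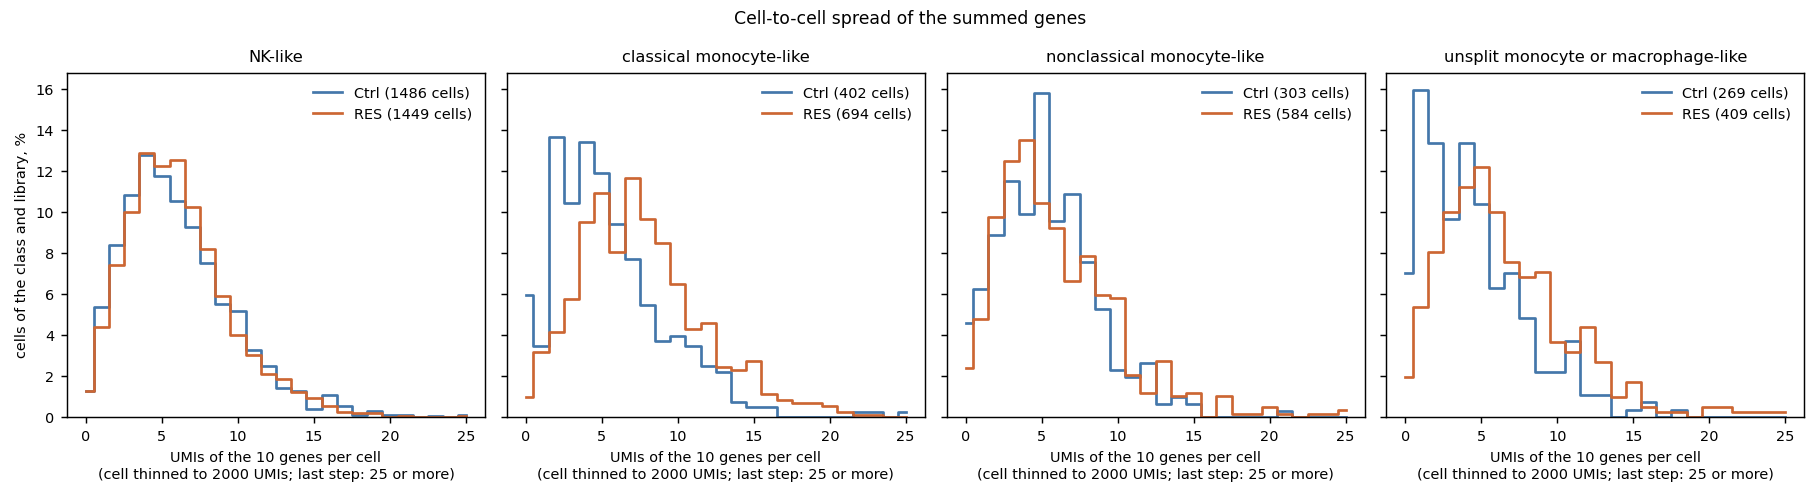
Share of cells (percent of the class and library) by the number of UMIs of the 10 genes in a cell thinned to 2000 UMIs, Ctrl in blue and RES in orange, for 4 classes. The NK-like curves overlie each other, and the RES curves of classical monocyte-like and unsplit cells lie to the right of Ctrl.

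Single genes differed in how few cells carried them. In monocyte or macrophage-like cells the 1% of cells with most Egr1 UMIs held 45.1% of them in Ctrl and 36.4% in RES, and in NK-like cells 46.3% and 36.1%. For Dusp1 the same share was 7.45% and 6.27% in monocyte or macrophage-like cells, and for Fos 9.20% and 7.33%. Egr1 was thus concentrated in few cells in both classes and libraries, and the other genes were shared more widely. Ier3 lay between, with 27.0% and 19.1% in monocyte or macrophage-like cells. The high NK-like values of Ier3 and Atf3 rest on fewer than 30 UMIs per library.

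**Figure D5:**
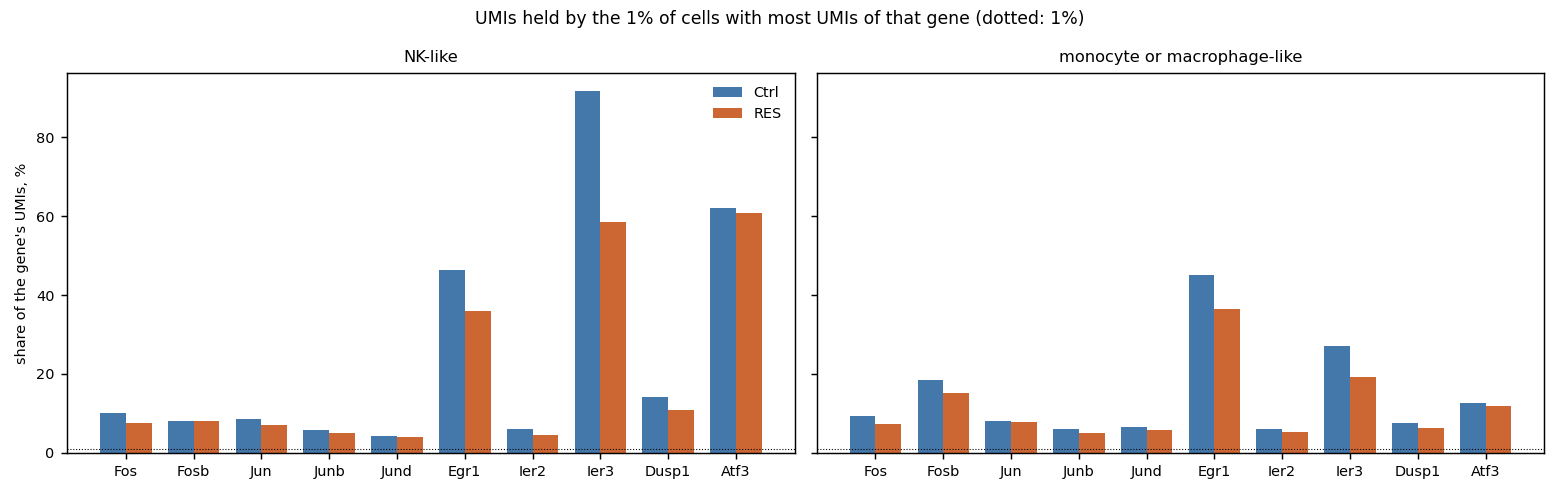
Share of each gene's UMIs (percent) held by the 1% of cells with most UMIs of that gene, in NK-like and in monocyte or macrophage-like cells, Ctrl in blue and RES in orange. Egr1 reaches 45.1% in Ctrl monocyte or macrophage-like cells, against 9.20% for Fos.

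Within a class the 10 genes were only weakly related across cells. Over thinned cells of 1 library, which share their preparation, Spearman's rho of Fos with Dusp1 was 0.21 in 402 Ctrl and 0.26 in 694 RES classical monocyte-like cells. For Fos with Fosb in NK-like cells it was 0.14 and 0.13. The summed genes had a rho of -0.08 and -0.02 with depth, and of -0.06 and -0.05 with the summed chaperone genes, in Ctrl and RES monocyte or macrophage-like cells. In counts this sparse such weak values describe the data and no more.

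Other genes of the pathway were counted by list. Of upstream kinases and factors, such as the MAP kinases and Srf, none was past 1.5-fold: of 15 measured in monocyte or macrophage-like cells 0 were 1.5-fold apart, with a median log2 ratio of 0.11. The highest were Mapk3, the ERK1 kinase, at 104 and 144 CPM (0.46) and Srf at 20.7 and 28.0 CPM (0.44). Of 10 other AP-1 partners 3 were higher and 1 lower (median 0.29), beside 7.06% and 4.75% of all genes. Fosl2, a Fos relative, was at 56.3 and 109 CPM (0.95), while Batf3 was at 93.7 and 45.2 CPM (-1.05). Without the Arg1 or Spp1 cells 0 of these 10 were higher and 2 lower, beside 2.77% and 2.89% of all genes. The background thus differed too, so the counts with and without these cells are not set against each other.

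Of 20 other immediate-early genes measured in monocyte or macrophage-like cells 6 were higher and 0 lower (median 0.23). Of all genes there 7.06% were higher and 4.75% lower. Phlda1 was at 8.32 and 24.7 CPM (1.57) and Plk3, a stress kinase, at 8.07 and 23.1 CPM (1.52). The lowest was Gadd45b at 56.3 and 41.0 CPM (-0.46). Without the Arg1 or Spp1 cells 1 of 16 was higher, beside 2.77% of all genes. In NK-like cells 0 of 19 were higher and 2 lower, among them Gadd45b at 36.7 and 18.2 CPM (-1.01). Of all 5953 genes measured in NK-like cells 0.84% were higher and 0.706% lower. A count of 0 higher is therefore near the background there, for this list as for the 10 genes.

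Of 6 phosphatases and feedback inhibitors 0 were apart in monocyte or macrophage-like cells, with Dusp6, which acts on ERK, at 119 and 84.3 CPM (-0.49). Dusp16 was at 83.0 and 98.8 CPM (0.25) and Spred1 at 60.7 and 73.9 CPM (0.28), so members lay on both sides of 0. Without the Arg1 or Spp1 cells 1 of the 6 was higher and 0 lower, beside 2.77% and 2.89% of all genes. In NK-like cells Dusp2 was at 401 and 670 CPM (0.74). In monocyte or macrophage-like cells 5 of 8 AP-1 targets were higher and 1 lower (median 0.62), beside 7.06% and 4.75% of all genes. The higher ones include Spp1 at 11.9 and 913 CPM, which also sets the gate above. In NK-like cells Spp1 was at 7.41 and 27.2 CPM, and whether free RNA gave these counts was not tested. Timp1, a metalloproteinase inhibitor, was counted 4 times in Ctrl and 1086 times in RES. Cyclin D1 (Ccnd1) was at 67.5 and 16.8 CPM (-2.004). Without the Arg1 or Spp1 cells 0 of 5 measured targets were higher and 1 lower, beside 2.77% and 2.89% of all genes. Because the gate uses Spp1, a fall of Spp1 was fixed in advance, and only 5 of the 8 targets were still measured. The counts with and without these cells therefore cannot be set against each other. Of 18 NF-kB feedback and inflammatory genes 1 was higher and 2 lower (median -0.08), beside 7.06% and 4.75% of all genes. The higher one, the chemokine Cxcl2, was at 61.6 and 275 CPM (2.16), and the activation marker Cd83 was at 49.3 and 28.3 CPM (-0.80).

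Lists that respond to handling or stress hormones were compared in both classes. Of all genes, 7.06% were higher and 4.75% lower in monocyte or macrophage-like cells. In NK-like cells the shares were 0.84% and 0.706%. Of 12 chaperone genes measured in monocyte or macrophage-like cells 2 were higher and 0 lower (median 0.23): the heat-inducible Hspa1a, at 13.6 and 39.0 CPM (1.52), and Hspa1b, at 12.9 and 49.5 CPM (1.94). In NK-like cells 1 of 10 was higher and 0 lower (median 0.15), and Hspa1a was counted 0 and 16 times. Of the 8 lists, the glucocorticoid-induced genes had the highest median in both classes: 4 of 6 were higher in monocyte or macrophage-like cells (median 0.73) and 3 of 4 in NK-like cells (median 0.92), with 0 lower. Fkbp5, a chaperone of the glucocorticoid receptor, was at 9.71 and 48.0 CPM in the former (2.30) and 35.7 and 67.0 CPM in the latter (0.91). The summed level of the list was 270 and 468 CPM in the former and 237 and 418 CPM in the latter. In classical monocyte-like cells all 5 measured were higher (median 0.81), beside 5.56% of all genes. Without the Arg1 or Spp1 cells 4 of 6 were higher (median 0.76), beside 2.77%. The glucocorticoid-induced genes differed in the same direction as Dusp1 in both classes, and their part in its difference was not tested.

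The genes whose level followed the mean of the 10 most closely were ranked over 14 profiles, which are the 7 classes in each library. The first was Srsf9, a splicing factor (Pearson's r 0.89 on the log2(CPM + 10) scale), followed by Prdx2 (0.87), Cfp (0.87), Tmem256 (0.86) and Rbpj (0.86). Prdx2 overlaps Junb on the opposite strand, as given above. The 10 genes did not share 1 profile: r with the mean of the other 9 was 0.81 for Fos and 0.73 for Ier3, but -0.76 for Jund and -0.69 for Fosb. Across single cells the gene most like the sum in monocyte or macrophage-like cells was Zfp36, which destabilizes such transcripts, with a rho of 0.24 in Ctrl and 0.23 in RES. In NK-like cells it was Btg1 (0.14 and 0.11), then Klf6 (0.14 and 0.09) and Cd69 (0.12 and 0.12). The profiles share libraries and depth, and these values are descriptions.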

How the data were processed

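The authors deposited 1 matrix per library of unnormalised UMI counts, written by Cell Ranger 3.1.0 per the file headers. The submitters' processing notes name bcl2fastq, Cell Ranger and the mm10 build. The counting annotation is not given in the sources used here. Everything after the counts was computed here with Python 3.11.15, scanpy 1.11.5, numpy 2.4.6, scipy 1.17.1 and pandas 2.3.3.

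Barcodes under 200 genes or over 10% mitochondrial UMIs were dropped, which removed 245 Ctrl and 121 RES barcodes. The highest Scrublet scores, at 0.8% per 1000 barcodes, took out a further 109 and 146. A cell joined a class when at least 3 of its markers had a UMI and the share of the list seen led every other list by 0.15. Cells between lists (208 and 184) or with no list (140 and 71) were in no class. UMIs were summed per class and library and divided by the summed total (CPM). Ratios have exact conditional binomial intervals, levels exact Poisson intervals and shares were compared after thinning to 1000 UMIs. The intervals are at the 95% level and cover counting error only. With 1 library per group no test was made, and a 1.5-fold difference at 20 CPM or more in either library stood in for a call. The calculations were tested on simulated data. Classes needed 50 cells in each library.

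The 10 genes, the lists and the gates were chosen with earlier results of these data known. Named genes are the 10, up to 4 of each list (the 2 highest and 2 lowest by ratio in monocyte or macrophage-like cells) and the genes most like the 10, over class and library profiles and over cells. For the profiles only the 7 classes that share no cell were used. The contrasts between classes and within RES, the removal of top cells, and the leaving out of shared barcodes and of Arg1 or Spp1 cells were added after the data were seen.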

Additional observations from a re-analysis of the deposited data

Results flagged for a closer look

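For 2 of the 10 genes the difference between the libraries went opposite ways in 2 classes, each past 1.5-fold with an interval that excludes 0. Fosb was higher in RES in nonclassical monocyte-like cells (log2 ratio 0.61) and lower in macrophage-like cells (-2.06), a gap of 2.68 on the log2 scale. Egr1 was higher in RES in unsplit monocyte or macrophage-like cells (0.81) and lower in B cell-like cells (-2.45), a gap of 3.26. With 1 library per group neither gap was tested. The macrophage-like Fosb value rests on 76 Ctrl and 109 RES UMIs and the B cell-like Egr1 value on 81 and 17, and without the top cell of each library they were -2.06 and -2.31.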

How the results depend on the processing

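The summed log2 ratio of the 10 genes in monocyte or macrophage-like cells (0.38) stayed above 0 under the alternatives run. It was 0.41 when gates were set on cells thinned to 2000 UMIs, 0.45 in cells of 2000 to 10000 UMIs, 0.34 with median ratio scaling, 0.46 without Arg1 or Spp1 cells and 0.19 as the median of the 10. In NK-like cells (0.01) it was -0.027 as the median of the genes, a change of sign within a span near 0. With a fold of 2 in place of 1.5, 1 gene was higher in monocyte or macrophage-like cells in place of 2. Of 154 values of single genes under alternatives, 18 moved by more than their interval and 5 of those changed sign, for Fosb, Jund and Egr1 in monocyte or macrophage-like cells. Jund was -0.01 without the Arg1 or Spp1 cells, and Egr1 was -0.14 as a mean of per-cell levels. With no minimum level, 39.4% of all genes in monocyte or macrophage-like cells and 30.2% in NK-like cells were 1.5-fold apart, against 11.8% and 1.55% at 20 CPM. No paired analysis was possible because each group has 1 library. Leaving out a replicate was not possible for the same reason. Depth limits Ier3 and Atf3 in NK-like cells and most genes in macrophage-like and B cell-like cells.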
